A study of Schizosaccharomyces pombe with 28 samples.

Results

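The core histone genes of fission yeast (Schizosaccharomyces pombe) were followed here across the ChIP-chip arrays of a study of the histone demethylase Swm1. The genes were hht1, hht2 and hht3 (histone H3), hhf1, hhf2 and hhf3 (histone H4), hta1 and hta2 (histone H2A), htb1 (histone H2B) and pht1, which encodes the H2A.Z variant. They were picked by gene name or systematic identifier. All 10 genes were found among the 4893 ORF (open reading frame) features kept and all 10 among the 4950 IGR (intergenic region) features kept. The arrays name the H3 and H4 genes h3.1 to h4.3, and these names were matched to the current ones through RefSeq. An IGR feature carries the name of 1 gene, so each histone gene has 1 ORF and 1 IGR feature.

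The series holds 28 samples, each the reading of a spotted array, or of its ORF or IGR part, in Cy3 and Cy5. A feature has 2 spots on an array. In 8 of them chromatin immunoprecipitated for H3K4me2 or H3K9me2 (dimethylated lysine 4 or lysine 9 of histone H3) from swm1 deletion cells (swm1Δ) was hybridised against the same from wild type cells (wt). Each mark had 2 arrays for ORF and 2 for IGR features. The ORF and IGR samples of a replicate carry the same slide number, so they are parts of the same slide. Agreement between them is therefore not a separate measurement. The labels call the H3K4me2 pair C1 and C2, and the H3K9me2 pair B1 and B2. The labels swap the dyes between C1 and C2, and between the IGR parts of B1 and B2, while both H3K9me2 ORF labels put swm1Δ in Cy3. In 12 samples the label gives Hrp1-myc or Hrp3-myc chromatin in Cy3 and input DNA in Cy5, with 3 arrays for each protein and feature type. Some of these ORF and IGR samples also share a slide number or code, so they too may be parts of the same slides. Hrp1 and Hrp3 are chromatin remodellers of the CHD family, and both were carried as myc-tagged proteins. A further 6 samples are labelled as total H3 in hrp1Δ cells, and 2 are expression arrays of swm1Δ against wt. The features of the expression arrays carry no gene names in the files used here, so histone mRNA was not analysed here. The growth stage and cell cycle position of the cultures used for ChIP are not given in the sources used here.

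Core histones package DNA into nucleosomes, and most of their genes are transcribed mainly in S phase, when new chromatin is made. In fission yeast the H3 and H4 genes are arranged as divergent pairs, as are hta1 and htb1. Their promoters carry a repeated AACCCT box, and the GATA-type factor Ams2 acts on them in S phase, while the HIRA complex (Hip1, Slm9 and partners) represses them outside it. H3K4me2 marks transcribed chromatin, and H3K9me2 marks heterochromatin in this yeast. H2A.Z, encoded by pht1, is placed into nucleosomes by the Swr1 complex and is not one of the replication-coupled histones.

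The promoters are shown because they are where the core histone genes and pht1 differ in sequence. The IGR features were also taken to read this side of the genes, though the probe positions are not known. The sequences come from RefSeq (assembly ASM294v3), and the capitals mark each AACCCT or its reverse complement AGGGTT. For the 4 divergent pairs the stretch between the annotated transcripts is printed from the plus strand, and for hta2 and pht1 the 250 bases before the annotated transcript are printed from the minus strand. The stretches lie at chrI:4699600-4699731 (hhf1/hht1), chrII:1364985-1365118 (hhf2/hht2), chrII:3529566-3529766 (hht3/hhf3), chrIII:1412182-1412358 (hta1/htb1), chrI:4053319-4053568 (hta2) and chrII:1503445-1503694 (pht1).
hhf1/hht1 promoter: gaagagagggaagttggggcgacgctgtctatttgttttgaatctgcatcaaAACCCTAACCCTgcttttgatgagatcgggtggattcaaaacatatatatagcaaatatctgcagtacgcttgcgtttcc
hhf2/hht2 promoter: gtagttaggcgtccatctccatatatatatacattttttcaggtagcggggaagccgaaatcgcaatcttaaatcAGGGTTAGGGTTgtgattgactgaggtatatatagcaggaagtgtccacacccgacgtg
hht3/hhf3 promoter: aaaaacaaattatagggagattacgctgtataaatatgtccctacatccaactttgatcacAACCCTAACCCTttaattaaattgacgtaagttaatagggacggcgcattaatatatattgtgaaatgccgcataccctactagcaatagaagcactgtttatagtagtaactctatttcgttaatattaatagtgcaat
hta1/htb1 promoter: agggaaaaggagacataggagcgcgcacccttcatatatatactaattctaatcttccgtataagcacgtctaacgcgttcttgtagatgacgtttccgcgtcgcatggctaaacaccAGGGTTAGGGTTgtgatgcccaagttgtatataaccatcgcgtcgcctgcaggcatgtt
hta2 promoter: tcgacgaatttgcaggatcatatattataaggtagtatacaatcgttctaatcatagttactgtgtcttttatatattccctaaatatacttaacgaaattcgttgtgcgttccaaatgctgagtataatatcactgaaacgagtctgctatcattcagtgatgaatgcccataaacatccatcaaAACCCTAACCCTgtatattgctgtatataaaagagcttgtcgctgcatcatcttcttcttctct
pht1 promoter: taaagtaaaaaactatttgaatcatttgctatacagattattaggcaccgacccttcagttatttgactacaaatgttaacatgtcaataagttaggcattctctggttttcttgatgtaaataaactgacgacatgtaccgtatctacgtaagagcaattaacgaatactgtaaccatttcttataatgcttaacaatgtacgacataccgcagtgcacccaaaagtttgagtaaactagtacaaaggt
Each of the first 5 stretches held 1 AACCCTAACCCT, which is 2 AACCCT boxes in a row, and pht1 held neither. Both strands were searched, and each match of the longer motif also counts as 2 of the shorter. In the 250 bases before the annotated transcript, 9 of the 10 histone genes had AACCCTAACCCT, against 20 of 5144 genes in all (0.389%). The single box AACCCT stood before 429 of them (8.34%). A match is a description of letters and says nothing of what binds there.

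**Figure D1:**
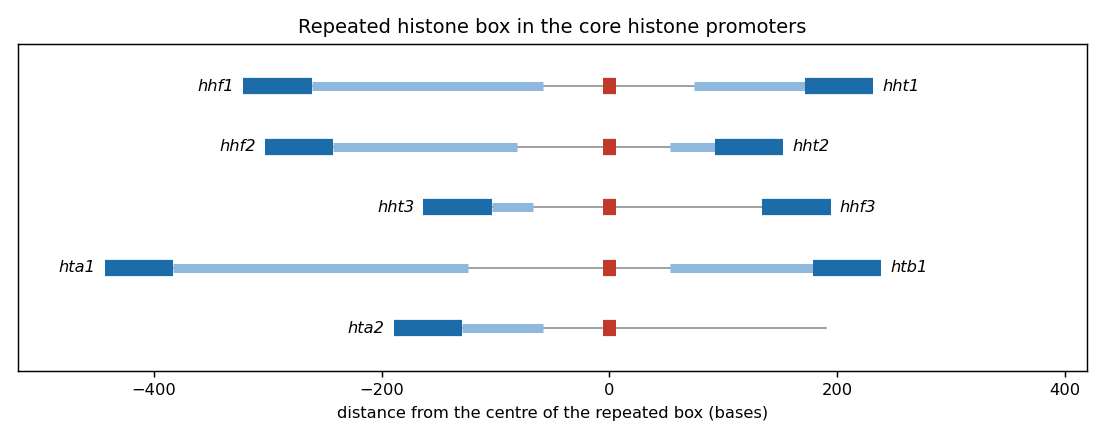
Map of the 5 core histone promoters, with the distance in bases from the centre of the repeated box (red) on the axis, to scale. Dark blue blocks are the first bases of the coding sequences, light blue the annotated transcript before them, and the grey line the stretch between. In the 4 divergent pairs the box lies between both transcripts, 53.5 bases from the start of the hht2 and htb1 transcripts. For hhf3 the distance is 134.5 bases, to the start of the coding sequence, as no transcript is annotated before it.

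The copies share sequence, and array features of such genes can hybridise with the DNA of each other. The 3 H3 proteins were identical, as were the 3 H4 proteins. In the coding sequences hht1 and hht3 were identical at 381 of 411 bases (92.7%), hht1 and hht2 at 88.8%, and hht2 and hht3 at 88.3%. The H4 coding sequences were identical at 91.35% to 93.27% of 312 bases. The longest stretch without a difference was 54 bases, between hhf2 and hhf3. The genes hta1 and hta2 matched at 86.5% and their proteins differed at 3 residues, while pht1 matched them at 58.3% and 60% with no shared stretch over 11 bases. The positions of the spotted probes are not in the files, so the reads of the H3 copies, of the H4 copies and of hta1 and hta2 were treated as open to cross-hybridisation. The start of the H3 genes shows how the copies differ, with the codons of lysine 4 and lysine 9, the residues whose methylation was measured, in capitals.
hht1 start: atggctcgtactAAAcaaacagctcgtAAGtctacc
hht2 start: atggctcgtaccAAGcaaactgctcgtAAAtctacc
hht3 start: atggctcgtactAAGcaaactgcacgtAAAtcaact
These stretches lie at chrI:4699829-4699864 (hht1, plus strand), chrII:1365158-1365193 (hht2, plus strand) and chrII:3529494-3529529 (hht3, minus strand). Over these 36 bases hht1 differed from hht2 at 4 positions and from hht3 at 6. All 10 genes have 1 coding exon, of 312 bases for H4, 411 for H3, 399 for hta1, 396 for hta2, 381 for htb1 and 420 for pht1.

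Several facts of the arrays touch the results. The feature of the deleted gene swm1 read -4.04 and -3.76 on the H3K4me2 ORF arrays (log2 of swm1Δ over wt) and -2.38 and -2.29 on the IGR arrays. On the H3K9me2 arrays it read 0.03 and -1.43 in the ORF and 0.81 and 0.16 in the IGR features, so of the H3K9me2 arrays only the ORF part of B2 showed the deletion. Across all features the 2 arrays of H3K4me2 had a Pearson correlation of 0.70 (ORF) and 0.43 (IGR), and those of H3K9me2 of 0.06 and 0.01. The labels of the ORF part and the IGR part of B1 name opposite dyes. B1 was read with wt in Cy3, as its IGR label says, and this reading goes against its ORF label. The ORF ratios that the authors deposited have the direction of this reading at the H4 genes. Their means for hhf1, hhf2 and hhf3 were 0.84, 0.84 and 0.40, against 0.85, 0.93 and 0.42 as read here. By the ORF label the means were -1.81, -1.52 and -1.32. On 1 array of each Hrp group (slide 2 for Hrp1-myc ORF, slide 1 for Hrp1-myc IGR, slide 1 for Hrp3-myc ORF and array K080D for Hrp3-myc IGR) the deposited values followed the dye labelled input. These arrays had correlations of -0.13 to -0.29 with the others of their group, which correlated at 0.56 to 0.76 with each other. The Hrp labels were kept as the main reading, and results are also given with the sign of these arrays turned. The code K080D also stands in the labels of the other Hrp3-myc arrays and of the numbered Hrp1-myc slides. The array called K080D here is the Hrp3-myc IGR array whose label gives no slide number. The arrays called A260E carry another code and are listed under another array platform. What the codes stand for is not given. Finally, the deposited values of total H3 in hrp1Δ cells were the same measurements as those of the arrays labelled Hrp1-myc, with rank correlations of 0.9995 to 1. Which of the 2 labels belongs to these scans cannot be told apart, so they are called the arrays labelled Hrp1-myc. For the scans of slide 2 (ORF) and slide 1 (IGR) the total H3 labels give input in Cy3 and the immunoprecipitate in Cy5, the opposite of the Hrp1-myc labels and the dyes of the turned reading.

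On the main test none of the 10 histone genes was called in any of the 8 groups of arrays. For each feature the mean log2 ratio of the arrays was tested against 0 with limma, with Benjamini-Hochberg adjustment over all features and a call at an adjusted p under 0.05. For H3K4me2 in ORF features 28.5% of all features were called (770 higher and 625 lower in swm1Δ), and 5.29% in IGR features. In the other groups 0 features were called, where 199 and 268 features (H3K9me2 ORF and IGR), 313 and 288 (Hrp1-myc) and 317 and 205 (Hrp3-myc) had an unadjusted limma p under 0.05. Of the histone genes, 1 ORF (hht1) and 3 IGR features (hta1, hta2 and hhf3) had such a p on the arrays labelled Hrp1-myc and 0 in the other groups. No 2 genes next to each other in the order of the means were apart by more than the larger of their SDs, in any group. The number of arrays, 2 or 3 per group, limits the precision. For the Hrp arrays nothing says that they came from separate cultures, so these p-values measure only the spread between the arrays, which may be technical.

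The ORF features of the histone genes showed no called difference in H3K4me2 between swm1Δ and wt. As measured, all 10 means lay below 0, between -0.04 and -0.49 on the log2 scale, and their median was -0.14 against -0.02 for all features. Among the H3 genes, hht1 read -0.28 on C1 and -0.01 on C2. The ratios of hht2 were -0.18 and -0.14, and those of hht3 were -0.10 and -0.17. The 3 H3 genes thus lay below 0 on both arrays and, as measured, within 0.03 of each other in the mean (-0.14, -0.16 and -0.13, the last an upper bound). Of the H4 genes, hhf3 read -0.18 and -0.38, below 0 on both arrays. The feature of hhf2 read 0.02 on C1 and -0.999 on C2 as measured, and that of hhf1 read 0.18 and -0.25.

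Saturated spots set bounds on some of these ratios. In Cy5, which held wt on C1 and swm1Δ on C2, hhf1 was saturated at both spots of both arrays, hhf2 at 1 spot of C1 and 2 of C2, and hht3 at 2 spots of C1. The ratios of hhf1, hhf2 and hht3 on C1 are therefore upper bounds, and those of hhf1 and hhf2 on C2 lower bounds. The signs of hhf1 and hhf2 on both arrays are thus not settled. Their means, SDs and p-values, and those of hht3, rest on bounded values (for hhf2 a mean of -0.49 ± 0.72, SD, n = 2; adjusted p = 0.154 with limma). On C2 the Cy3 level of hhf2 stood 3.88 above the array median on the log2 scale and was not saturated.

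The H2A and H2B genes moved together between the arrays. On C1 hta1, hta2 and htb1 read -0.34, -0.45 and -0.31, and on C2 they read 0.13, 0.22 and 0.23. The sign of all 3 thus differed between the arrays, and their means were -0.10, -0.12 and -0.04. The ratios of pht1 were -0.63 and -0.09 (mean -0.36 ± 0.38, SD, n = 2; adjusted p = 0.253 with limma). Below 0 on both arrays were 5 of the 10 genes as measured, where 39.3% of all features were, and above 0 on both were 0, where 37.3% of all features were. The 2 spots of a member on 1 array differed by a median of 0.05, less than the arrays differed for most of the members.

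Short genes had low H3K4me2 ratios on these arrays. Over 4668 ORF features with a known length, the mean ratio had a Spearman correlation of 0.52 with the coding length, a description across genes that share the same arrays. The 254 other ORF features with a coding length of 312 to 411 bases had a median of -0.50, and the 9 core histone genes a median of -0.13. The core histone genes thus lay above the median of other genes of their size, a difference for which no test was made.

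**Figure D2:**
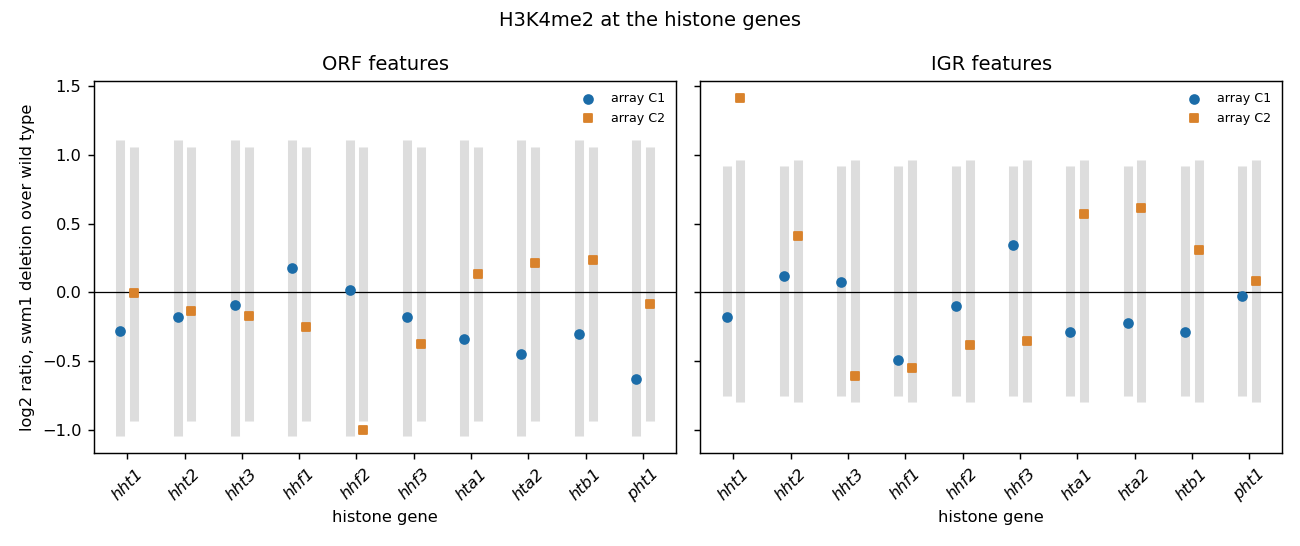
H3K4me2 at the histone genes, as the log2 ratio of swm1Δ over wt on each array (blue circles C1, orange squares C2), for ORF features on the left and IGR features on the right. Grey bars span the 5th to 95th percentile of all features on that array. In ORF features all members but hhf2 on C2 (-0.999, a lower bound) lie inside the bars, and in IGR features all but hht1 on C2 (1.41).

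In IGR features the histone genes had a median H3K4me2 ratio of 0.02, and 6 of 10 means lay above 0. The features named for the H3 genes gave -0.18 and 1.41 for hht1 (mean 0.62 ± 1.12, SD, n = 2; adjusted p = 0.383 with limma), 0.12 and 0.41 for hht2, and 0.08 and -0.61 for hht3. Only hht2 kept 1 sign on both arrays. Those named for the H4 genes gave -0.49 and -0.55 for hhf1 (mean -0.52 ± 0.04, SD, n = 2; adjusted p = 0.334 with limma), -0.10 and -0.38 for hhf2, and 0.35 and -0.35 for hhf3. The mean of hhf1 was the lowest of the 10, at percentile 7.46 of all features, and its arrays differed by 0.06. The genes hht1 and hhf1 share a divergent promoter, with 432 bases between the coding sequences. On C2 the features named for them read 1.41 and -0.55. Whether these 2 features overlap is not known, since the files give no probe positions.

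For hta1, hta2 and htb1 the IGR ratios were -0.29, -0.22 and -0.29 on C1 and 0.57, 0.61 and 0.31 on C2. As in the ORF features, which come from the same slides, all 3 lay below 0 on C1 and above 0 on C2. The IGR feature of pht1 read -0.03 and 0.08. On C1 each IGR value rests on 1 spot, as the scanner file of a single spot was used here.

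The IGR features were taken to lie on the 5′ side of the gene they are named for. Over 4359 IGR features the brightness in input DNA had a Spearman correlation of 0.39 with the GC content of the 500 bases before the gene and of 0.10 with that of the 500 bases after it, on RefSeq coordinates. This is a description across features and not a map of the probes.

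For H3K9me2 no histone gene was called, and the sign of 5 of the 10 ORF features differed between the 2 arrays. In ORF features the H4 genes read 2.65, 2.45 and 1.74 on B1 (hhf1, hhf2 and hhf3) and -0.96, -0.60 and -0.90 on B2. All 3 thus lay well above 0 on B1 and below 0 on B2. The signs of B1 rest on the reading of its dyes, and with the dyes read as its ORF label says they would be below 0 on both arrays, with 0 of the 10 genes called in that reading too. The H3 genes read -0.39 and -0.52 (hht1), 0.42 and -0.52 (hht2), and -0.97 and -0.31 (hht3). Ratios above 0 on both arrays were found for hta1, at 0.66 and 1.12, and hta2, at 0.45 and 1.09. These means, 0.89 ± 0.33 and 0.77 ± 0.45 (SD, n = 2), had adjusted limma p-values of 0.937 and 0.946. The ratios of htb1 were -1.26 and 0.40, and those of pht1 were -1.96 and -0.13. So 2 of the 10 genes lay above 0 on both arrays, where 27.2% of all features did, and 3 below 0 on both, where 23.7% did. With B1 read as its ORF label says, 1 (htb1) lay above 0 on both arrays (22.1% of all features) and 4 below (hht2, hhf1, hhf2 and hhf3; 26.9%), and hta1 and hta2 no longer had 1 sign.

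**Figure D3:**
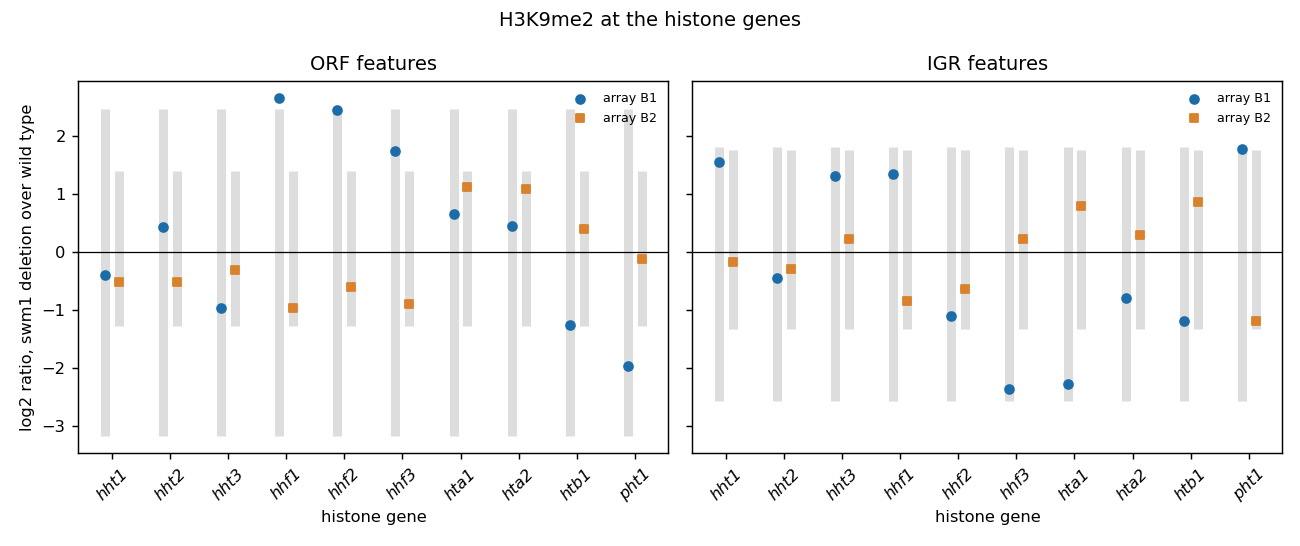
H3K9me2 at the histone genes, as the log2 ratio of swm1Δ over wt on each array (blue circles B1, orange squares B2), for ORF features on the left and IGR features on the right, with grey bars for the 5th to 95th percentile of all features on that array. In ORF features hhf1 on B1 (2.65) lies above its bar, and hhf1, hhf2 and hhf3 lie above 0 on B1 and below 0 on B2.

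In IGR features, where the ratios that the authors deposited were used, the H3 side read 1.55 and -0.17 for hht1, -0.45 and -0.29 for hht2, and 1.31 and 0.22 for hht3. The H4 side read 1.34 and -0.85 for hhf1, -1.10 and -0.63 for hhf2, and -2.36 and 0.22 for hhf3. The H2A side read -2.27 and 0.80 for hta1 and -0.80 and 0.29 for hta2. The pattern of the ORF features, with the 3 H4 genes alike on each array, was not seen here. The value of htb1 on B1 (-1.19) is the mean of spots at -6.64, the lowest value the table holds, and 4.26, so it has no reading, and on B2 it was 0.87. The feature of pht1 read 1.78 and -1.19. Over the 10 genes 1 lay above 0 on both arrays (29% of all features) and 2 below (19.3%), and with B1 turned 4 lay above (18.3%), htb1 with no reading on B1 among them, and 3 below (33.4%). The deposited ratios were not centred, and the median of all features was 0.47 on B1 and -0.06 on B2. The signs given here are thus against 0 and not against the array median.

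Of the Hrp arrays, those of Hrp3-myc gave the largest ratios of the core histone genes. On slides 2 and 3 the ORF features of all 9 core genes lay above 0, while 8 of these 9 lay below 0 on slide 1, the array whose deposited values follow the other dye. The values are log2 ratios of Cy3 over Cy5, with the array median set to 0, so that a ratio above 0 on the labels means more Hrp3-myc chromatin than at the median feature. Across the 3 arrays, the ORF feature of hht1 read -0.89, 1.63 and 1.66 on slides 1, 2 and 3. The values of hht2 were -0.70, 1.27 and 2.12, and those of hht3 were -0.69, 1.22 and 1.87. The H3 genes were thus alike on each array, with means of 0.80 to 0.90.

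The H4 genes followed the same order of arrays at smaller values. The feature of hhf1 read -0.70, 0.60 and 1.32, hhf2 read -0.47, 0.54 and 1.11, and hhf3 read -0.35, 0.44 and 1.36. On slide 2 the mean of the 3 H4 genes was 0.53 and that of the 3 H3 genes 1.37, with no overlap between them, and on slide 3 they were 1.27 and 1.89, again with no overlap. On slide 1 the H3 genes lay between -0.89 and -0.69 and the H4 genes between -0.70 and -0.35, so there they overlapped. Cross-hybridisation within each family was not tested, so the copies of a family do not count as separate measurements.

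The gene of histone H2B, htb1, had the highest ratios of the members on slides 2 and 3 and the second lowest on slide 1. It read -0.81, 2.53 and 2.26 (mean 1.33 ± 1.85, SD, n = 3; adjusted p = 0.691 with limma), and its mean stood at percentile 99.4 of all features. Its divergent partner hta1 read -0.45, 0.71 and 1.40. The other H2A gene, hta2, was the only core gene above 0 on all 3 arrays by the labels, at 0.37, 0.54 and 0.97 (mean 0.63 ± 0.31, SD, n = 3; adjusted p = 0.691 with limma). With the sign of slide 1 turned it was the only core gene not above 0 on all 3 (mean 0.38 ± 0.68), and the 8 others were, as were 21.9% of all features. The H2A.Z gene pht1 read 0.04, -0.26 and 0.05, close to the array median each time. On both slide 2 and slide 3 there were 9 of 10 genes above 0, where 36.7% of all features were, and 4 at or above the 90th percentile, where 5.99% of all features were.

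**Figure D4:**
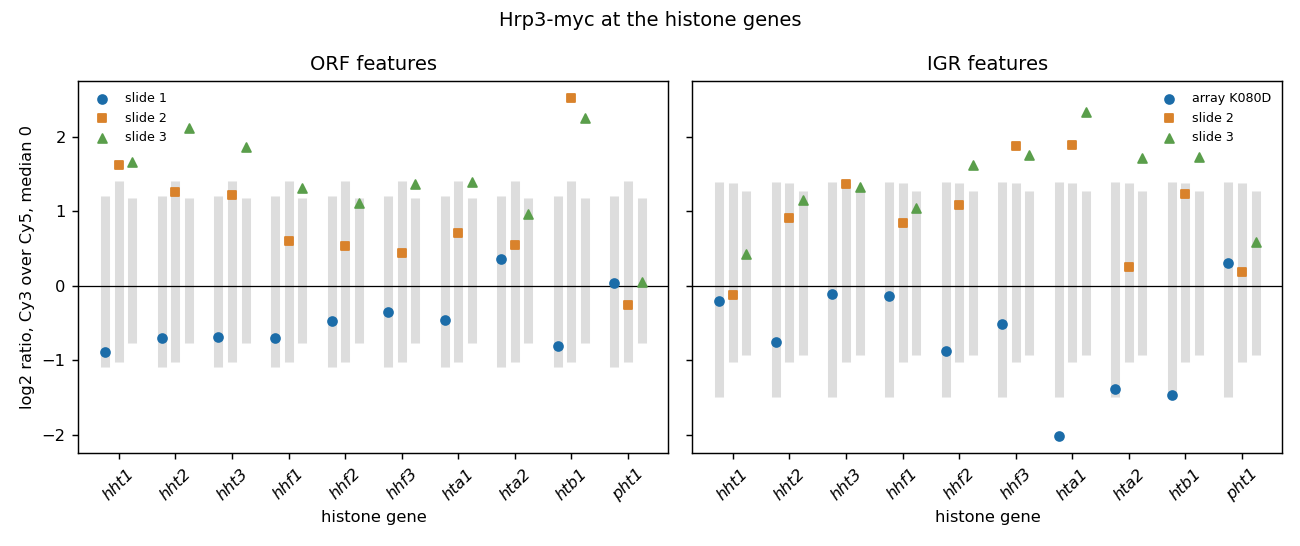
Hrp3-myc at the histone genes, as the log2 ratio of Cy3 over Cy5 with the array median at 0, on each of 3 arrays (blue circles, orange squares and green triangles), for ORF features on the left and IGR features on the right, with grey bars for the 5th to 95th percentile of all features on that array. The core genes lie above 0 on slides 2 and 3 in both plots, except hht1 on slide 2 in IGR features (-0.13), and pht1 lies between -0.26 and 0.59 on all arrays.

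Whether these genes were called depended on 1 array. Without slide 1, 9 of the 10 ORF features were called higher by limma, all but pht1, where 27.6% of all features were called (15.9% higher). With the sign of slide 1 turned, a choice made after the values were seen, 2 were called, htb1 (1.87, adjusted p = 0.0379) and hht1 (1.39, adjusted p = 0.0384), where 2.27% of all features were called. The feature of hht1 did not pass the filter on dim features, which left 9 members tested. Without slide 2 or slide 3, 0 features of any kind were called (83 and 82 had an unadjusted limma p under 0.05). On slide 2, 71.8% of all ORF features were at least 1.5 times the local background in both dyes, and on slide 3 99.2% were. The part of the dyes or of dim spots in the result was not tested.

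In IGR features, with slides 2 and 3 numbered as for the ORF features, Hrp3-myc gave a similar picture. On array K080D and slides 2 and 3 the feature of hta1 read -2.02, 1.89 and 2.33, the widest spread of any member on the Hrp arrays. That of htb1, the divergent partner of hta1, read -1.47, 1.23 and 1.73, and that of hta2 read -1.38, 0.26 and 1.71. The 3 H2A and H2B features were the lowest of the core genes on K080D, where they lay between -1.38 and -2.02 and the H3 and H4 features between -0.10 and -0.88. Their Cy3 levels were low on that array, at percentiles 10.4 (hta1), 6.66 (hta2) and 9.93 (htb1) of all features. The Cy5 levels stood at percentiles 30.6, 11.8 and 20.7. The H4 features read -0.13, 0.84 and 1.05 (hhf1), -0.88, 1.09 and 1.63 (hhf2), and -0.51, 1.88 and 1.75 (hhf3). The H3 features read -0.76, 0.92 and 1.16 (hht2) and -0.10, 1.37 and 1.33 (hht3). The feature of hht1 differed, at -0.21, -0.13 and 0.43, although its ORF feature read 1.63 and 1.66 on slides 2 and 3. That of pht1 read 0.31, 0.19 and 0.59. On slides 2 and 3 together, 9 of 10 genes lay above 0 (35.9% of all features) and 5 at or above the 90th percentile (5.52%).

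As for the ORF features, the call depended on the array whose values follow Cy5. Without K080D, 7 IGR features were called higher, all but hht1, hta2 and pht1, where 18.2% of all features were called (11.5% higher). With its sign turned, hta1 (2.08, adjusted p = 0.0198 with limma) and htb1 (1.48, adjusted p = 0.0337) were called, where 2.57% of all features were. Both means include K080D values at low Cy3 levels. At least 1.5 times the local background in both dyes were 82.1% of IGR features on K080D. On slide 2 the share was 71.2% and on slide 3 99.7%. The filter on dim features left 9 members tested, and the part of dim spots in the result was not tested.

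The genes next to the histone genes on the chromosome had Hrp3-myc ratios around the array median. Over slides 2 and 3 the 9 core ORF features had means of 0.76 to 2.39 (median 1.06), and the 12 neighbouring genes had means of -1.02 to 0.79 (median -0.05). The ranges met only at their ends, and the difference was not tested. The 254 other ORF features of the same coding length had a median of 0.00. In IGR features the median was 1.35 for the core genes (0.15 to 2.11) and -0.05 for the neighbours (-1.18 to 0.99), so there the ranges overlapped.

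The arrays labelled Hrp1-myc gave smaller ratios. In ORF features the mean of hht1 was 0.61 ± 0.21 (SD, n = 3), from 0.81, 0.38 and 0.63 on array A260E, slide 2 and slide 3, with an unadjusted limma p of 0.0265 and an adjusted p of 0.731. The gene hht2 read 0.97, -0.01 and 0.77, and htb1 read 0.96, -0.30 and 0.76. By the labels these 3 genes had the highest ORF means of the 10, and only hht1 of them lay above 0 on all 3 arrays. With the sign of slide 2 turned the highest means were those of htb1 (0.67), hht2 (0.58), hhf1 (0.41) and hht1 (0.35), and htb1 and hht2 lay above 0 on all 3 arrays and hht1 did not. The feature of hht3 read 0.18, 0.22 and 0.20, so the closest H3 copies in sequence, hht1 and hht3, differed in the mean by 0.41 by the labels, more than the SD of either. In the turned reading their means were 0.35 ± 0.64 and 0.05 ± 0.24 (SD, n = 3), closer than the SD of hht1.

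Among the H4 genes, hhf1 read 0.50, -0.27 and 0.47, hhf2 read 0.31, 0.08 and 0.58, and hhf3 read -0.04, -0.59 and 0.17. The values of hta1 stayed near 0, at 0.12, -0.11 and 0.04. Those of hta2 (0.10, 1.14 and -0.09) and pht1 (-0.04, 0.81 and -0.40) were high on slide 2 alone, the array whose deposited values follow Cy5. On array A260E and slide 3 together 7 of 10 genes lay above 0 (33.1% of all features). Without slide 2, hht1, hht2 and htb1 were called higher by limma, where 9.48% of all features were called (3.99% higher), and with its sign turned 0 were called (0.245%).

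**Figure D5:**
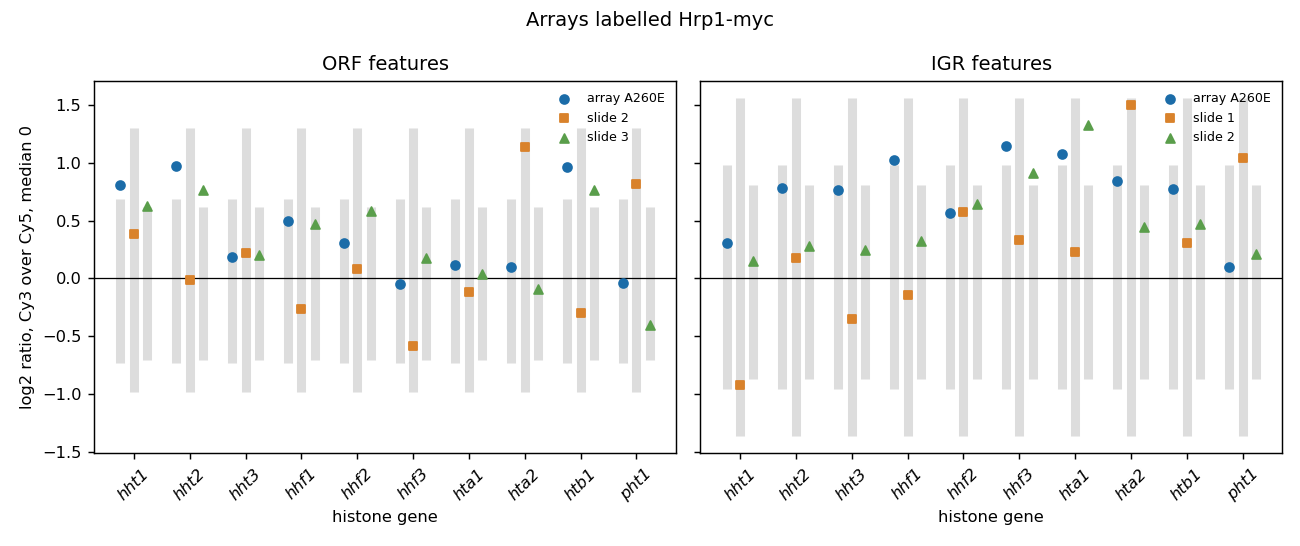
The arrays labelled Hrp1-myc at the histone genes, as the log2 ratio of Cy3 over Cy5 with the array median at 0, on each of 3 arrays (blue circles, orange squares and green triangles), for ORF features on the left and IGR features on the right, with grey bars for the 5th to 95th percentile of all features on that array. In IGR features all 10 genes lie above 0 on A260E and slide 2, and slide 1 runs from -0.92 (hht1) to 1.502 (hta2).

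In IGR features the histone genes had a median of 0.48 on the arrays labelled Hrp1-myc, and 9 of 10 means lay above 0. By the labels the highest means were those of hta2 (0.84, 1.502 and 0.44 on array A260E, slide 1 and slide 2), hta1 (1.08, 0.23 and 1.33) and hhf3 (1.15, 0.33 and 0.91). Their unadjusted limma p-values were 0.0217, 0.0297 and 0.0338, and the adjusted p was 0.846 for each. The place of hta2 rests on slide 1, and with that sign turned its mean was -0.07, while those of hta1 and hhf3 were 0.73 and 0.58. The most even values were those of hhf2, at 0.57, 0.58 and 0.65, and htb1 read 0.77, 0.31 and 0.47. The feature of hhf1 read 1.02, -0.14 and 0.33. The H3 features lay lower, with 0.30, -0.92 and 0.15 for hht1, 0.78, 0.18 and 0.28 for hht2, and 0.76, -0.35 and 0.24 for hht3. The feature of pht1 read 0.10, 1.04 and 0.21.

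In these IGR features 7 of the 10 genes thus lay above 0 on all 3 arrays, where 14.3% of all features did, by the labels. With the sign of slide 1 turned 3 of the 10 did (hht1, hht3 and hhf1), where 20.8% of all features did. All 10 lay above 0 on A260E and slide 2, where 35.2% did. Without slide 1, 2 genes were called higher by limma, hhf3 and hta1, where 9.94% of all features were called (4.79% higher), and with its sign turned 0 were (0.0404%). Over A260E and slide 2 the core genes had a median of 0.62 (0.23 to 1.21) and the 12 neighbouring genes one of -0.10 (-0.62 to 0.81), so the 2 sets overlapped. In ORF features over A260E and slide 3 the medians were 0.45 and -0.09. The 9 core ORF features had a median of 0.32 over all 3 arrays, and 254 other ORFs of their coding length one of 0.05.

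The study's methods name the median percentile rank instead, and rank rules were run at minimum ranks of 90 (Hrp1), 92 (Hrp3 ORF) and 94 (Hrp3 IGR). By the mean rank over the 3 arrays 0 histone genes passed in any group, where 0.92% (Hrp1-myc ORF), 0.788% (Hrp1-myc IGR), 0.429% (Hrp3-myc ORF) and 0.121% (Hrp3-myc IGR) of all features did. By the median rank, the middle one of the 3 arrays, hht1, hht2 and htb1 passed for Hrp1-myc ORF (4.39% of all features) and hhf3, hta1 and hta2 for IGR (4.85%). For Hrp3-myc hht1, hht2, hht3 and htb1 passed in ORF (4.93%) and hht3, hhf3 and hta1 in IGR features (3.21%). The median rank was added after the values were seen. For methylation the rule of a ratio of at least 2.0 or at most 0.5 in 3 or more data points was met by 0 histone genes for either mark (5.4% of ORF and 2.42% of IGR features for H3K4me2, 7.36% and 7.4% for H3K9me2). For H3K4me2 in IGR features C1 gave a single spot, so all 3 data points had to pass there, which is stricter than the rule of the paper.

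The deposited values labelled total H3 in hrp1Δ cells held 8 of the 10 genes, with none for hht1 and hhf2. They follow the signal of 1 dye, so they describe the brightness of a probe and not a ratio, and no test was made. Against the array median pht1 was below on 5 of the 6 arrays, from -1.62 to -0.53 on the log2 scale, and at 0.12 on the sixth. The 7 core genes with a value were above it on all 6 arrays, with the exception of hta2 on the ORF and IGR parts of the slide labelled X (-1.49 and -0.93).

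Across the 10 ORF arrays of all 4 assays, the members differed in how far they followed one another. The Pearson correlation of a gene with the mean of the other members was 0.95 for hht2, 0.86 for hht1 and 0.78 for hht3. It was 0.65 for htb1, 0.63 for hta1, 0.61 for hhf3, 0.47 for hhf1 and 0.46 for hhf2. The lowest values were 0.23 for hta2 and -0.15 for pht1. Of single pairs hhf1 and hhf3 were most alike (0.95), followed by hhf1 and hhf2 (0.95) and by hht1 and hht3 (0.92), all copies within the H4 or H3 family. Pairs that are not copies came close, with 0.914 for hht3 and htb1 and 0.896 for hht1 and htb1. The copies hhf2 and hhf3 stood at 0.908, and hht2 and hht3 at 0.821. Of the other ORF features the 3 most like the mean of the members over these 10 arrays were uvi15 (0.97), SPBC21C3.19 (0.94) and rps25-2, a gene of a ribosomal protein (0.93). These correlations are descriptions over 10 arrays that share dyes but not all strains. They rest on the reading of B1 by its IGR label and on the Hrp arrays as labelled, with no sign turned. B1 had the widest spread of these arrays (SD 1.68 over all ORF features).

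The genes that act on histone supply were measured beside them. Of a list of 19 regulators, chaperones and the CENP-A gene, 18 were measured as ORF and 18 as IGR features. For H3K4me2 in ORF features 4 of 18 were higher in swm1Δ and 2 lower by limma, where 28.5% of all features were called, so 6 of 18 was near the background. The higher ones were nap1, a histone chaperone (1.37, adjusted p = 0.000755), hip4, of the HIRA complex (0.90, adjusted p = 0.00843), and both subunits of the histone chaperone FACT, spt16 (0.85, adjusted p = 0.0108) and pob3 (0.78, adjusted p = 0.021). The lower ones were cnp1, which encodes CENP-A, the H3 variant of centromeres (-0.82, adjusted p = 0.0135), and hip3, of the HIRA complex (-0.64, adjusted p = 0.0433). The values of ams2 were -0.80 and -0.41, with an adjusted limma p of 0.0544. These tests did not take coding length into account, with which the H3K4me2 ORF ratios correlated (Spearman 0.52, as given above). In the other 7 groups of arrays 0 of 18 were called. Among the 12 genes next to the histone genes, 4 were called for H3K4me2 in ORF features (28.5% of all features), with sec5 (1.15, adjusted p = 0.00195) and rsd1 (0.81, adjusted p = 0.0136) higher and SPBC1105.13C (-0.71, adjusted p = 0.0258) and SPCC622.07 (-0.68, adjusted p = 0.0333) lower.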

How the data were processed

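DNA from ChIP of swm1Δ and wt cells, or of Hrp-myc cells and their input, was measured on spotted Eurogentec ORF and IGR arrays. The deposited scanner files hold, per the file headers, 2 intensities for every spot and dye, the median over the spot and that over its surroundings. The authors deposited log2 ratios of swm1Δ over wt after Lowess normalization in GeneSpring, log10 values per chip for the Hrp arrays and log2 values for total H3. The scanner, its software and the genome build are not given in the sources used here.

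Intensities were background corrected with limma 3.58.1 in R 4.3.3 (normexp, offset 50), without a further pseudocount. Methylation ratios were loess normalized (span 0.3) within each scanner file, and Hrp ratios were centred on the array median. The deposited ratios were used for H3K9me2 in IGR features, since no scanner file of B1 was used there. The 2 spots of an array were averaged and counted as 1 replicate. Control features (859 ORF, 13 IGR) and features marked missing (165 and 208) were left out. Array means were tested against 0 with lmFit and eBayes, over all features. Per the methods the methylation arrays came from 2 independent ChIP samples. Tables used Python 3.11.15, pandas 2.3.3 and scipy 1.17.1. The test was also run on simulated arrays, all with the same true ratios. That simulation does not cover groups such as the Hrp arrays, where an array correlates negatively with the others.

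All 10 members were matched to RefSeq (ASM294v3), which was used for sequences, gene order and lengths only. Named were the 10 members, called genes of the list of 19 regulators, the 12 neighbours, the 3 ORFs of most similar pattern and swm1. The members and lists were chosen with earlier results of these data known. Alternatives were another background correction, normalization, dim spot filter (1.5 times background), the deposited values, the other dye reading and leaving out each array. The expression table has unnamed features and was not used here.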

Additional observations from a re-analysis of the deposited data

How the results depend on the processing

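Of 356 alternative values of single histone genes with no array left out, 307 kept their direction and side of the threshold, 14 passed the threshold and 35 changed sign, of which 1 was called. Of the 48 counts of called genes with all arrays, 40 were 0, like the main counts. The exceptions were the deposited Hrp values, which follow 1 dye, with 7 genes called for Hrp1-myc IGR (36.5% of all features) and 4 for Hrp3-myc IGR (11.8%); the turned sign, with 2 each for Hrp3-myc ORF and IGR; and the median rank, with 3 for Hrp1-myc ORF, 3 for Hrp1-myc IGR, 4 for Hrp3-myc ORF and 3 for Hrp3-myc IGR. The median log2 ratio of the histone genes for H3K4me2 ORF moved to -0.28 with median centring, and on the deposited values it was 0.998 for Hrp1-myc ORF, 1.34 for Hrp1-myc IGR and 1.78 for Hrp3-myc ORF. The signs that changed were as follows. With the ORF label of B1, H3K9me2 ORF gave hht3 0.33, hhf1 -1.81, hhf2 -1.52, hhf3 -1.32, htb1 0.83 and pht1 0.92, and all 10 IGR means turned (hht1 -0.86, hht2 0.078, hht3 -0.55, hhf1 -1.09, hhf2 0.24, hhf3 1.29, hta1 1.53, hta2 0.55, htb1 1.03 and pht1 -1.48). With median centring H3K9me2 ORF gave htb1 0.22, and H3K4me2 IGR gave hhf3 0.16 and htb1 -0.0074. H3K4me2 IGR also gave htb1 -0.023 on the deposited values and pht1 -0.017 with signals as given. On the deposited values Hrp1-myc ORF gave hhf3 1.03 and pht1 -0.48, Hrp1-myc IGR hta2 -0.15 and pht1 -0.996 (called), and Hrp3-myc IGR hta2 -0.47 and pht1 -0.51. The turned sign gave hhf3 0.24, hta2 -0.38 and pht1 -0.42 for Hrp1-myc ORF, and hht1 0.46, hta2 -0.072 and pht1 -0.24 for Hrp1-myc IGR. For Hrp3-myc IGR loess gave hht1 -0.049, and signals as given hta2 -0.50. The deposited ORF values of hht1 on the Hrp arrays are listed at 0. Leaving out each array in turn gave 0 to 2 called genes for Hrp1-myc IGR, 0 to 3 for Hrp1-myc ORF, 0 to 7 for Hrp3-myc IGR and 0 to 9 for Hrp3-myc ORF, the highest each time without the array whose values follow Cy5. The medians then ran from -0.14 to 0.20 (H3K4me2 IGR), -0.23 to -0.11 (H3K4me2 ORF), -0.63 to 0.03 (H3K9me2 IGR), -0.41 to 0.44 (H3K9me2 ORF), 0.50 to 0.61 (Hrp1-myc IGR), 0.22 to 0.32 (Hrp1-myc ORF), 0.09 to 1.19 (Hrp3-myc IGR) and 0.20 to 1.01 (Hrp3-myc ORF). Of 120 Hrp values with 1 array left out 21 passed the threshold and 11 changed sign. These ran from -0.32 to 0.065 (hhf3), -0.037 to 0.080 (hta1) and -0.22 to 0.39 (pht1) for Hrp1-myc ORF, -0.39 to 0.23 (hht1) and -0.055 to 0.50 (hht3) for Hrp1-myc IGR, -0.051 to 0.96 (hhf1) and -0.11 to 0.044 (pht1) for Hrp3-myc ORF, and -0.17 to 0.15 (hht1), -0.068 to 2.11 (hta1), -0.56 to 0.99 (hta2) and -0.12 to 1.48 (htb1) for Hrp3-myc IGR. The cause of these shifts was not tested. The 28 alternative values of the 7 regulators named for H3K4me2 ORF kept their direction and side.

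Single methylation arrays gave 80 values with no test, of which 24 had the sign opposite to the mean. Alternatives for expression and total H3 were not run, and those for scanner intensities could not be run for H3K9me2 IGR. No paired analysis was possible because each array already compares both samples on 1 slide and the groups are not compared with each other. With 2 or 3 arrays per group, a p that misses the threshold does not show that histone genes are unaffected.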
